A study of Mus musculus with 4 samples.

Results

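The genes described here are 9 that are used to mark pancreatic duct cells and other simple epithelia, chosen by symbol from the 24421 rows of the deposited table: Krt7, Krt8, Krt18, Krt19, Muc1, Anxa2, Epcam, Cftr and Cldn4. All 9 have a row. They were measured by RNA sequencing of isolated pancreatic islets from wild-type C57BL/6 mice, with 2 libraries of control islets, which the labels call untreated, and 2 libraries of islets that received the treatment labelled cytoEV every day for 48 h. All islets recovered overnight after isolation and were kept in RPMI medium with 11 mM glucose. By its title the study is about vesicles, small membrane packages shed by beta cells in a pro-inflammatory state. The deposited table heads the control columns with a name resembling control EV, so whether the control islets also received vesicles is not settled here, and neither is the time for which they were cultured. The labels do not state that replicates are different animals or cultures, and the p-values then cover nothing beyond the spread among these 4 libraries, which may be technical.

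Simple epithelia are single-layered cell sheets such as the lining of a duct. Their keratin filaments are built by pairing a type I keratin (Krt18 or Krt19) with a type II keratin (Krt7 or Krt8). Claudins such as Cldn4 seal the space between neighbouring cells, Epcam is an adhesion molecule of epithelial surfaces, and the mucin Muc1 coats the side that faces the lumen. Duct cells of the pancreas secrete bicarbonate-rich fluid with the help of the chloride channel encoded by Cftr. Endocrine cells of the islet arise from the same embryonic epithelium as ducts, and Epcam, Krt8 and Krt18 are known in islet cells as well as in ducts.

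The 9 genes differed widely in level. Krt7, Krt8, Krt18, Epcam and Cldn4 lay between 71.0 and 248 CPM (the reads of a gene scaled to the same library total in every library) in every library, whereas Anxa2, Muc1, Krt19 and Cftr lay between 0 and 21.2 CPM. Anxa2 fell by 56.7% and Muc1 fell by 56.0% in cytoEV islets, and none of the 5 genes with high levels passed the test. Of the 9 genes, 7 were tested, because Krt19 and Cftr stayed under the filter of 1 CPM in at least 2 libraries. Among the 7 genes 0 were higher and 2 lower at a Benjamini-Hochberg adjusted p under 0.05 (limma on log2(CPM + 1)), and 28.6% lower compares with 3.51% lower among all 12780 tested genes, where 3.16% were higher. The groups did not overlap, with cytoEV lower, for 3 of the 7 genes, beside 26.1% of all tested genes with cytoEV lower and 27.8% with cytoEV higher. In either direction limma called 6.67% of all tested genes. The 9 genes and the lists below were chosen with earlier results of these data known, so such shares are descriptions and not a test. The 0 higher genes were also 0 at an unadjusted p under 0.05, 0 in edgeR (2.52% of all tested genes higher) and 0 in DESeq2 (5.83%). The share of all tested genes at that unadjusted cut was not computed, so counts at it, here and below, lack a background. Of the 7 genes 2 were lower in edgeR, beside 3.15% of all, and 3 in DESeq2, beside 6.61%. The median log2 change of the 7 genes was -0.08, and that of all tested genes was 0.01. Groups of 2 against 2 cannot go below p = 0.333 when 1 gene is tested by exact permutation, and the calls depend on the variance limma shares among genes.

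**Figure D1:**
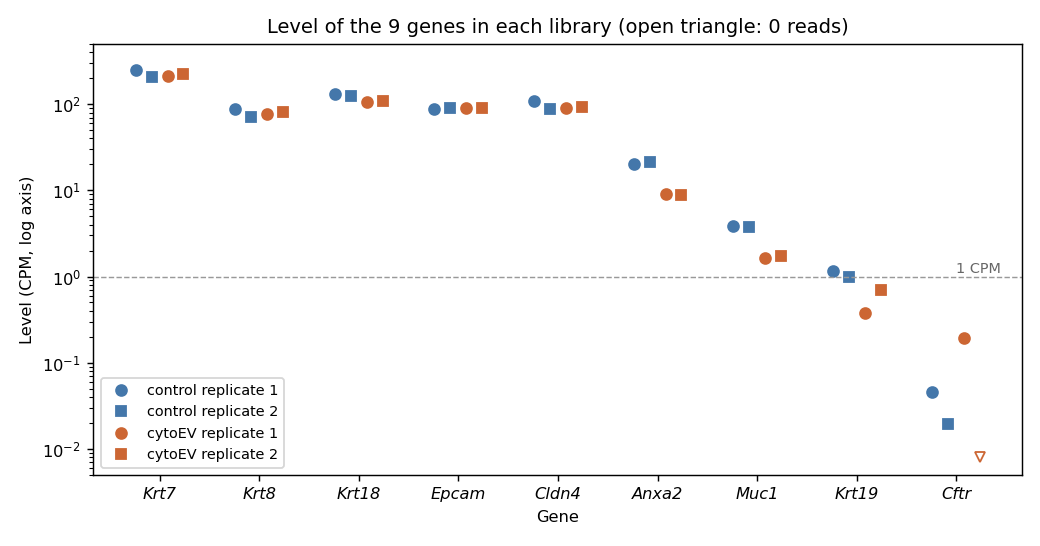
Level of each of the 9 genes in CPM on a log axis, with control libraries in blue and cytoEV libraries in orange (circle, replicate 1; square, replicate 2). Krt7, Krt8, Krt18, Epcam and Cldn4 lie between 71.0 and 248 CPM in all 4 libraries, and for Anxa2, Muc1 and Krt19 both cytoEV points lie under both control points; Cftr has 0 reads in cytoEV replicate 2.

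The libraries held 129726756 to 156183968 reads, recovered from the CPM steps as described under the processing. Depth therefore puts the floor of 3 reads between 0.0192 and 0.0231 CPM, which covers counting error only. In both groups the replicate pairs differed by more than counting noise, with a chi-square per degree of freedom of 95.6 between control libraries and 27.5 between cytoEV libraries. The labelled tissue was checked by 9 beta cell markers, among them the insulin genes Ins1 and Ins2, which together took 208363 to 244785 CPM of each library. Among all tested genes 404 were higher and 449 lower in cytoEV islets, and 53.9% of the tested genes had groups that did not overlap.

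The label ductal was checked against duct genes outside the 9. Of 17 other duct markers, Onecut1, Sctr, Muc6 and Tff2 had 0 reads in all 4 libraries, and Car2, which encodes the carbonic anhydrase of bicarbonate-secreting ducts, had 0 reads in 3 libraries and 11 reads in control replicate 2. Sox9, a transcription factor of duct cells, was at 0.540 and 0.519 CPM in control and 0.138 and 0.257 CPM in cytoEV islets. Krt19 and Cftr, both members, were scarce too. The list was mixed, however: 9 of the 17 genes passed the filter, and all 17 together summed to 417 to 507 CPM. Prom1 was at 159 to 182 CPM, Spp1 at 72.8 to 133 CPM, Ambp at 27.0 to 33.2 CPM and Pkhd1 at 9.95 to 14.4 CPM. Onecut1, Sctr, Muc6 and Tff2 had 0 reads, Car2 was near 0 and Sox9 was low but detected, while others of the list were higher. The label ductal is therefore not used for the levels, and the set is called the 9 epithelial genes below.

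Positions are given on GRCm38, from GENCODE M21. The keratins Krt7 (chr15:101411043-101430313, plus strand), Krt8 (chr15:101996698-102004482, minus) and Krt18 (chr15:102028180-102032027, plus) share chromosome 15, where 23697 bases separate Krt8 from Krt18. Krt19 lies at chr11:100140810-100148665 (minus). Muc1 is at chr3:89229057-89233381 (plus) and Anxa2 at chr9:69453620-69491795 (plus), Epcam at chr17:87635979-87651129 (plus), Cldn4 at chr5:134945119-134946934 (minus) and Cftr at chr6:18170687-18322768 (plus). Cldn4 is a single-exon gene. Of the 50-base stretches of Krt8 transcripts, 29.7% also occur in transcripts of other genes, chiefly those of the pseudogene Krt8-ps, so its value is less certain than those of the other 8 genes, for which the share was at most 1.35%. Exons of Anxa2, Cftr, Krt7 and Krt8 overlap a gene on the opposite strand by 77 to 129 bases. The sources used here do not say if strand was used in counting, and reads in those stretches may come from either gene.

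Promoter windows of 300 bases (250 before and 50 after the annotated start, RefSeq on GRCm38.p6) were found for 8 of the 9 genes. The windows of Anxa2 and Muc1 are shown because these are the genes that fell, and that of Cldn4 because it holds a motif of the Anxa2 window while its level did not pass the test. Capitals mark the TATA box, searched as TATAAA, and the AP-1 motif, searched as TGANTCA. Sequences are written 5′ to 3′ on the gene's own strand.
Anxa2, chr9:69453433-69453732, plus strand: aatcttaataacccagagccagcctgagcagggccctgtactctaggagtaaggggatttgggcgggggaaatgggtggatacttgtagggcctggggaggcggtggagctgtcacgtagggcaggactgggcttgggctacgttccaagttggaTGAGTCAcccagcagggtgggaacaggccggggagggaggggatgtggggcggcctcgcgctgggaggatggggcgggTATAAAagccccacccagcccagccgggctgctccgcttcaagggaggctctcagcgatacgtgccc
Muc1, chr3:89228806-89229105, plus strand: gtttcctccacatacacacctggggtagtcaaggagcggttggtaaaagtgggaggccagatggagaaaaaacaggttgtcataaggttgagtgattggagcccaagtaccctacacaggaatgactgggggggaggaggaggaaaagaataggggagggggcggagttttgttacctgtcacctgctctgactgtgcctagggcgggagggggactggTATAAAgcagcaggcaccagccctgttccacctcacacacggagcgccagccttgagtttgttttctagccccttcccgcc
Cldn4, chr5:134946885-134947184, minus strand: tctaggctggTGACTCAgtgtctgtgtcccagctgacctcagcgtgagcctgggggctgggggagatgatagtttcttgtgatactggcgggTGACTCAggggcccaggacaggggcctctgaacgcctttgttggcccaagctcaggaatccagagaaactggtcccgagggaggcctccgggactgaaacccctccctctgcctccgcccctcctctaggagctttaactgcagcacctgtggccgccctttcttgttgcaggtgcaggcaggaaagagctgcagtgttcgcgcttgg

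Both strands were searched. TGANTCA started at position -95 from the transcription start in Anxa2 and at -240 and -158 in Cldn4, and in no other of the 8 windows, while 7.81% of 32851 mouse windows of the same length hold it. TATAAA was present in Anxa2 (starting at -17), Muc1 (-31) and Krt8 (overlapping matches on both strands at -3 and -1), against 13.62% of all windows. The STAT motif TTCNNNGAA was in 0 of the 8 windows and in 8.3% of all windows. GGGCGG (GC box), left in lower case, was in 6 of the 8 windows, all but those of Krt8 and Krt18, and in 35.66% of all windows. In the windows shown no match of these motifs overlapped a match of another. The AP-1 letters occurred in the windows of Anxa2 and Cldn4 and not in that of Muc1. Whether any of these motifs bears on the levels was not tested.

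Of the 4 keratins, 3 were tested and 0 passed in limma or edgeR. In DESeq2 1 was lower, beside 6.61% of all tested genes, and 1 was lower at an unadjusted p under 0.05. Krt7, a type II keratin of glandular epithelia, was at 248 and 209 CPM in control replicates 1 and 2 and at 214 and 225 CPM in cytoEV replicates 1 and 2. Both cytoEV values lay between the control values. The log2 change of Krt7 was -0.05 (95% interval -0.28 to 0.17, limma adjusted p = 0.798). Krt8, the other type II member, was at 88.2 and 71.0 CPM in control and at 77.4 and 80.4 CPM in cytoEV islets. Again the cytoEV libraries lay inside the control range, with a log2 change of 0.00 (interval -0.26 to 0.25, limma adjusted p = 0.987).

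Krt18, the type I partner of Krt8, was at 132 and 125 CPM in control and at 105 and 109 CPM in cytoEV islets, so the groups did not overlap. Mean Krt18 went from 128 ± 5.14 CPM to 107 ± 2.81 CPM with cytoEV (SD, n = 2 each), a difference of -17.0%. The log2 change of -0.27 ± 0.08 (SE) did not pass in limma (adjusted p = 0.101) or edgeR (adjusted p = 0.0996), and passed in DESeq2 (adjusted p = 0.0450). With each library left out in turn the log2 change ran from -0.31 (without control replicate 2) to -0.23 (without control replicate 1). With a replicate block Krt18 did not pass (limma adjusted p = 0.362), and it passed in 4 of the 15 alternatives. These were DESeq2, the runs without a control library and a run with replicate numbers crossed. Without control replicate 2 the log2 change was -0.18 for Krt7 and -0.23 for Cldn4. When control replicate 1 was left out instead, it was 0.07 and 0.06, so the direction of both depends on which control library is used. Runs without a control library took their variance from the cytoEV pair and called far more of all genes than the main test. A pass in such a run, reported for several genes below, therefore says little about a single gene.

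Krt19, a type I keratin that is a standard duct marker, had 151 and 153 control reads and 52 and 94 cytoEV reads, or 1.16, 0.980, 0.377 and 0.690 CPM. The groups did not overlap, and mean Krt19 was 1.07 ± 0.130 CPM without and 0.534 ± 0.222 CPM with cytoEV (SD, n = 2 each). It was under the filter of the main test. EdgeR on recovered reads with a minimum of 10 reads in 2 libraries gave a log2 change of -1.01 and an adjusted p of 0.179, and limma without a filter an adjusted p of 0.161, so the difference did not pass either way. Those runs called 1.98% of genes higher and 2.37% lower in edgeR, and 0.841% higher and 1.01% lower in limma. The tested genes whose centred log2(CPM + 1) profiles over the 4 libraries lay nearest to that of Krt19 were Cd248 (Euclidean distance 0.0645), Rps19bp1 (0.0721) and Zfp865 (0.0724). Their log2 changes were -0.48, -0.38 and -0.39, and none passed. Changes near that of Krt19 follow from picking these genes by profile.

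Ratios between keratins were taken within each library. Per kilobase of principal transcript, Krt7 exceeded Krt8 by a factor of 1.34 and 1.41 in control and 1.32 and 1.34 in cytoEV libraries. The ratio of Krt8 to Krt18 on the same scale was 0.490 and 0.417 in control and 0.542 and 0.543 in cytoEV libraries, higher in both cytoEV libraries than in both control libraries. That of Krt7 to Krt19 was 81.9 and 82.0 in control and 218 and 125 in cytoEV libraries. These ratios are descriptions and were not tested. The order of Krt7 and Krt8 depends on the length used. Per kilobase of all annotated exons, the control mean was 32.4 CPM per kb for Krt7 and 40.6 CPM per kb for Krt8. Of 12 other keratins, including the stratified-epithelium keratins Krt5 and Krt14, 8 had 0 reads in all libraries and 3 were tested. None of the 3 passed in limma or edgeR (0 of 3, 1 at an unadjusted p under 0.05, and 1 higher in DESeq2). Krt10 had the smallest p, with 2.64 and 2.79 CPM in control and 3.79 and 4.86 CPM in cytoEV islets (log2 change 0.51 ± 0.14 SE, limma adjusted p = 0.0640). Krt10 passed with adjusted p = 0.0226 with a replicate block, 0.0298 in DESeq2, 0.0450 without control replicate 1, 0.0182 without control replicate 2 and 0.0447 without cytoEV replicate 1.

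**Figure D2:**
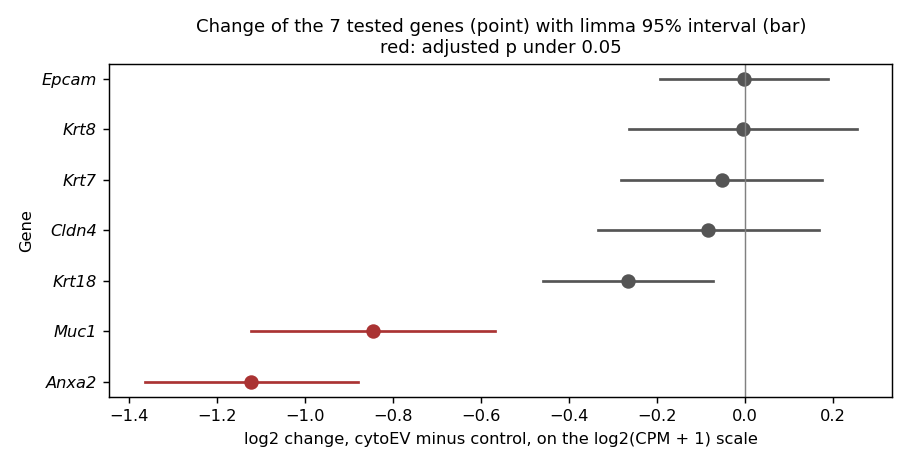
Log2 change (cytoEV minus control, log2(CPM + 1) scale) of the 7 tested genes, as the limma estimate (point) with its 95% interval, unadjusted for the number of genes (bar). Anxa2 and Muc1, in red, passed at an adjusted p under 0.05, with changes of -1.12 and -0.85, and the other 5 genes did not pass.

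Among the 3 members of the cell surface and of junctions, Muc1 fell and Epcam and Cldn4 did not pass. Epcam was at 88.5 and 91.4 CPM in control and at 90.3 and 89.3 CPM in cytoEV islets. The cytoEV values lay between the control values, and the log2 change was 0.00 ± 0.08 (SE, 95% interval -0.19 to 0.19, limma adjusted p = 0.994). Cldn4, a claudin of tight junctions, was at 108 and 87.5 CPM in control and at 89.8 and 93.1 CPM in cytoEV islets. The cytoEV values lay within the control range, and the log2 change was -0.08 (interval -0.34 to 0.17, limma adjusted p = 0.697).

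Muc1 was at 3.823 and 3.803 CPM in control and at 1.62 and 1.73 CPM in cytoEV islets, that is 496 and 594 reads against 224 and 236 reads. The control values were nearly alike, which with 2 libraries says little about their spread, and both cytoEV values lay far under them. Mean Muc1 fell by 56.0%, from 3.81 ± 0.0143 to 1.68 ± 0.0778 CPM (SD, n = 2 each). On the log2 scale this was -0.85 ± 0.12 (SE; limma adjusted p = 0.00467). Because the level is low, its size depends on the scale: a pseudocount of 5 gave -0.40 and edgeR gave -1.19 (adjusted p = 0.0131). Muc1 passed in all 14 alternatives that tested it, which are refits of the same 4 libraries. Of these, the runs without a control library and that with replicate numbers crossed called far more of all genes than the main test. The highest adjusted p of Muc1 was 0.0363, in limma with no filter.

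Other mucins and surface genes that were no members gave 1 lower and 0 higher among 13 tested (0 higher at an unadjusted p under 0.05, in edgeR and in DESeq2). The gene that fell was Lgals3, which encodes the sugar-binding protein galectin-3. It was at 45.3 and 43.7 CPM in control and at 25.3 and 27.8 CPM in cytoEV islets (log2 change -0.72 ± 0.10 SE, limma adjusted p = 0.00357). Muc4, another membrane mucin, was at 87.1 and 93.6 CPM in control and 105.9 and 100.8 CPM in cytoEV islets and did not pass (adjusted p = 0.233), although it passed as higher without control replicate 2 (0.0133). Cd9 did not pass either (adjusted p = 0.235).

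Of 18 other tight junction genes 16 were tested, and 0 passed in limma, in edgeR and in DESeq2, with 0 higher and 2 lower at an unadjusted p under 0.05. Their median log2 change was 0.03. The smallest p was that of Cldn7, the claudin known to bind Epcam, with 46.6 and 37.4 CPM in control and 33.1 CPM in both cytoEV libraries. Its log2 change was -0.33 ± 0.12 (SE, limma adjusted p = 0.141), and it passed without control replicate 2 (adjusted p = 0.000618). Of 10 desmosome and plakin genes, which anchor keratin filaments at the membrane, 0 passed in limma and edgeR, against 1 higher and 1 lower in DESeq2 and 2 higher and 3 lower at an unadjusted p under 0.05. Dsc2, a desmosomal cadherin, had the smallest p (log2 change 0.44 ± 0.12 SE, limma adjusted p = 0.0659) and passed in DESeq2 (0.0121), without control replicate 1 (0.0362) and without control replicate 2 (0.00136).

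Anxa2 encodes a calcium-dependent membrane-binding protein that joins membranes to the actin cytoskeleton. It was at 20.1 and 21.2 CPM in control and at 9.002 and 8.903 CPM in cytoEV islets, or 2609 and 3317 reads against 1242 and 1212 reads. The 2 values of each group were close, which says little about their spread, and the groups lay far apart. Mean Anxa2 fell by 56.7%, from 20.7 ± 0.796 to 8.95 ± 0.0703 CPM (SD, n = 2 each). On the log2 scale Anxa2 changed by -1.12 ± 0.11 (SE, limma adjusted p = 0.000449). It passed in all 15 alternatives, refits of the same 4 libraries that include the runs named for Muc1. The log2 changes lay between -1.22 and -0.88, and the highest adjusted p was 0.0171, in limma with no filter.

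S100a10 encodes p11, the light chain that forms a tetramer with annexin A2. It was at 18.4 and 22.9 CPM in control and at 19.5 and 19.6 CPM in cytoEV islets, inside the control range. Its log2 change was -0.06 ± 0.12 (SE, 95% interval -0.35 to 0.22, limma adjusted p = 0.802). The ratio of Anxa2 to S100a10 per kilobase of principal transcript was 0.518 and 0.439 in control and 0.218 and 0.215 in cytoEV libraries. That the change differs between these genes was not tested.

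Of 13 other tested genes (annexins, S100 genes and Ahnak) 3 fell and 0 rose (0 higher at an unadjusted p under 0.05, in edgeR and in DESeq2). That is 23.1% lower, beside 3.51% of all tested genes, and the median log2 change of the 13 genes was -0.12. The share is a description, since the list was chosen with earlier results known. S100a4, a calcium-binding protein abundant in motile and stromal cells, was at 16.04 and 19.28 CPM in control and 9.18 and 8.36 CPM in cytoEV islets (log2 change -0.93 ± 0.13 SE, limma adjusted p = 0.00346). Ahnak, a large scaffold protein that binds the Anxa2 and S100a10 complex, was at 9.30 and 11.9 CPM in control and 5.70 and 6.51 CPM in cytoEV islets (log2 change -0.70 ± 0.14 SE, limma adjusted p = 0.0229). S100a6 changed by -0.56 ± 0.12 (SE, limma adjusted p = 0.0325). None of Anxa1, Anxa3, Anxa4, Anxa5, Anxa6, Anxa7 and Anxa11 passed, with levels from 3.39 CPM for Anxa3 to 397 CPM for Anxa5. Some of these calls were fragile: without cytoEV replicate 1 the adjusted p was 0.101 for Ahnak and 0.396 for S100a6, and without cytoEV replicate 2 it was 0.0551 for S100a6. With no filter the adjusted p was 0.0541 for S100a4, 0.122 for Ahnak and 0.123 for S100a6, and edgeR gave 0.0511 for S100a6.

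**Figure D3:**
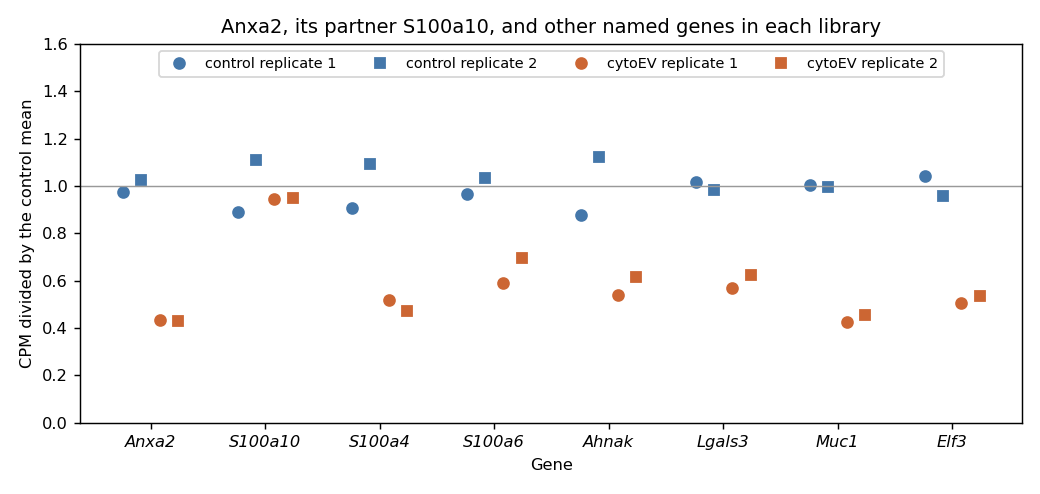
CPM of each library divided by the mean of the control libraries, for Anxa2, its partner S100a10, other named genes that fell and Muc1 (control in blue, cytoEV in orange; circle, replicate 1; square, replicate 2). Both cytoEV points lie under both control points for all genes shown except S100a10, whose cytoEV libraries (19.5 and 19.6 CPM) lie between the control libraries (18.4 and 22.9 CPM).

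Cftr was scarcely detected, with 6 and 3 control reads and 27 and 0 cytoEV reads. A count of 0 allows up to 0.0220 CPM in cytoEV replicate 2. The cytoEV libraries held both the highest and the lowest value, so no difference from control could be read from these values. Among 15 other genes of epithelial anion secretion 8 were tested, with 1 lower and 0 higher in limma and in edgeR (0 higher in DESeq2 and at an unadjusted p under 0.05). The lower gene was Slc12a2, the sodium-potassium-chloride cotransporter that loads epithelial cells with chloride. It was at 33.6 and 39.2 CPM in control and 25.9 and 26.4 CPM in cytoEV islets (log2 change -0.46 ± 0.11 SE, limma adjusted p = 0.0420). This call was lost with a replicate block (adjusted p = 0.0539), a filter of 5 CPM (0.0506), no filter (0.117), without cytoEV replicate 1 (0.406) and without cytoEV replicate 2 (0.303). Slc26a6 and Ano1, which encode an anion exchanger and a chloride channel, had log2 changes of -0.41 and -0.34 and did not pass (adjusted p = 0.147 and 0.152). Slc26a6 passed without control replicate 2 (0.0199).

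Compared per kilobase of principal transcript, the mean level in control islets was highest for Krt18, at 89.4 ± 3.57 CPM per kb. It was followed by Krt7 at 55.7 ± 6.74, Cldn4 at 53.7 ± 7.83, Epcam at 44.1 ± 1.005 and Krt8 at 40.6 ± 6.19 CPM per kb. Anxa2 was at 14.3 ± 0.550, Muc1 at 1.70 ± 0.00637, Krt19 at 0.680 ± 0.0827 and Cftr at 0.00519 ± 0.00303 CPM per kb (SD, n = 2 each). The neighbours Krt7 and Cldn4 lay within their spread, as did Epcam and Krt8. The place of Krt7 depends on its length: per kilobase of all annotated exons it was at 32.4 CPM per kb, the fifth of the 9 genes. In cytoEV islets Krt18 was again first, at 74.2 ± 1.96 CPM per kb, Anxa2 was at 6.19 ± 0.0486 and Muc1 at 0.749 ± 0.0347 CPM per kb (SD, n = 2 each).

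Genes that control or accompany the epithelial state were described beside the 9. Of 12 tested epithelial transcription factors 1 fell and 0 rose (2 higher in DESeq2 and 2 higher at an unadjusted p under 0.05, 0 in edgeR), with a median log2 change of -0.15. Elf3, an ETS factor of epithelial cells that inflammatory signals are known to induce, was at 49.8 and 45.8 CPM in control and at 24.2 and 25.6 CPM in cytoEV islets. Both cytoEV values lay far under both control values (log2 change -0.91 ± 0.10 SE, limma adjusted p = 0.001004). The related factor Ehf had 16.1 and 19.0 CPM in control and 25.4 and 22.3 CPM in cytoEV islets (log2 change 0.42, limma adjusted p = 0.0774), and passed as higher in DESeq2 (0.0128), without control replicate 1 (0.0432) and without control replicate 2 (0.00159). Foxa2, a regulator of endoderm, had a log2 change of 0.36 (adjusted p = 0.1001) and passed in DESeq2 (0.0278) and without control replicate 2 (0.000696).

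Of the 17 other duct markers 9 were tested, and 1 fell and 0 rose (1 higher at an unadjusted p under 0.05, 0 in edgeR and DESeq2). The gene that fell was Spp1, osteopontin, a secreted protein made by ducts and also by macrophages. It was at 114 and 133 CPM in control and 77.4 and 72.8 CPM in cytoEV islets (log2 change -0.70 ± 0.10 SE, limma adjusted p = 0.00472), and with no filter the adjusted p was 0.0519. Pkhd1 and Ambp did not pass (log2 change 0.33 and -0.25, limma adjusted p = 0.142 and 0.167). Pkhd1 passed without control replicate 2 (0.00615), and Ambp passed without control replicate 1 (0.0469) and without control replicate 2 (0.0415). Sox9 had 70 and 81 reads in control and 19 and 35 reads in cytoEV islets, and edgeR with the minimum of 10 reads gave a log2 change of -1.42 with an adjusted p of 0.171. Over the 8 lists of other epithelial genes together, 7 of 84 tested genes were lower and 0 higher in limma. That is 8.33% lower beside 3.51% of all tested genes, a description only, since the lists were chosen with earlier results known. The 0 higher compares with 6 at an unadjusted p under 0.05, 0 in edgeR and 4 in DESeq2.

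**Figure D4:**
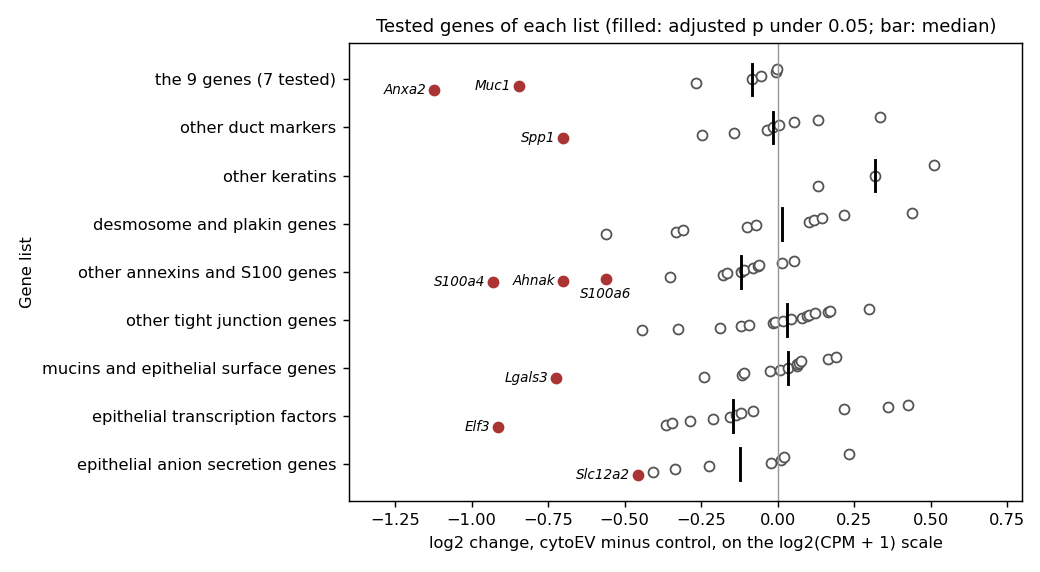
Log2 changes (cytoEV minus control, log2(CPM + 1) scale) of the tested genes of the 9 epithelial genes and of 8 lists of other epithelial genes, with filled points for an adjusted p under 0.05 in limma and a vertical bar at each list's median. The filled points are Anxa2, Muc1, Spp1, S100a4, Ahnak, S100a6, Lgals3, Elf3 and Slc12a2, all to the left of 0.

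Markers of other cell types that an islet preparation can hold were measured in the same libraries. In bulk RNA, fewer cells of a type and less RNA per cell cannot be told apart. Acinar markers, from the enzyme-secreting cells around the islet, had 5 of 6 tested genes lower, and their summed level was 221 to 236 CPM in control and 149.5 to 156 CPM in cytoEV islets. Ctrb1 (log2 change -2.34, limma adjusted p = 7.52e-05), Prss2 (-1.78, 0.000152) and Cpa1 (-1.69, 0.000226) had the smallest p, and Amy2b and Rbpjl had 0 reads in all libraries. The control means of Ctrb1, Prss2 and Cpa1 were 5.32, 3.11 and 2.38 CPM, so the sum rests mostly on other genes of the list. Their cytoEV means were 0.242, 0.194 and 0.0477 CPM. At these low levels the log2(CPM + 1) scale understates the size of the change. EdgeR gave log2 changes of -4.47 for Ctrb1, -4.01 for Prss2 and -5.63 for Cpa1. In DESeq2 3 of the 5 calls passed, and those of Cpa1 (adjusted p = 0.0690) and Reg1 (0.183) did not.

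Stellate and fibroblast markers had 3 of 9 lower (Dcn, Lum and Col3a1, log2 change -0.84, -0.79 and -0.44), with a sum of 287 to 338 CPM in control and 234 to 256 CPM in cytoEV islets. Endothelial markers also had 3 of 9 lower (Flt1, Pecam1 and Cdh5, log2 change -0.81, -0.51 and -0.51), with sums of 60.8 to 61.2 and 46.5 to 49.4 CPM. Schwann cell markers had 3 of 6 lower (Gfap, Ngfr and Cdh19, log2 change -1.31, -1.26 and -0.96), with sums of 29.2 to 29.5 and 16.8 to 18.5 CPM. Macrophage markers had 1 of 9 higher (Cx3cr1, log2 change 0.75) and 1 lower (Cd14, -0.62), while C1qa (0.44, limma adjusted p = 0.0733) passed as higher in DESeq2 (0.0177), without control replicate 1 (9.2e-05) and without control replicate 2 (0.0149), with sums of 307 to 311 and 304 to 313 CPM.

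The calls of the stromal, endothelial, Schwann and macrophage genes named here were lost with no filter, except for Gfap and Ngfr (adjusted p between 0.0541 and 0.120 for the others). Those of Pecam1, Cdh5, Col3a1 and Cd14 were also lost without cytoEV replicate 1 (adjusted p = 0.247, 0.396, 0.456 and 0.0892) and without cytoEV replicate 2 (0.279, 0.171, 0.263 and 0.0736). Cdh5 was lost in edgeR as well (0.0515), and Col3a1 with a replicate block (0.0509) and with quantile normalization (0.0516). Of the mesothelial markers Upk3b, Wt1, Lrrn4 and Upk1b had 0 reads in all libraries, and Msln was at 46.8 to 52.5 CPM with a log2 change of -0.05 (limma adjusted p = 0.812). The part of any of these cell types in the values of Anxa2, Muc1 and Krt19 was not tested.

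Endocrine markers were tested in the same way. Of 9 beta cell markers 1 rose, Slc2a2 (log2 change 1.19, limma adjusted p = 7.65e-05), and 0 fell (0 also at an unadjusted p under 0.05, in edgeR and in DESeq2). G6pc2 and Ucn3 had log2 changes of 0.34 and 0.21 and did not pass (adjusted p = 0.0640 and 0.150), although both passed with quantile normalization (0.00358 and 0.0468), without control replicate 1 (0.0111 and 0.0198) and without control replicate 2 (0.000145 and 0.0132), and G6pc2 in DESeq2 (0.0101). Of 6 alpha cell markers 0 passed in limma, edgeR and DESeq2, and 0 had an unadjusted p under 0.05. Of the 3 delta and PP cell markers 0 passed in limma and edgeR, 1 was lower in DESeq2 and 1 lower at an unadjusted p under 0.05. That gene was Ppy (log2 change -0.47, limma adjusted p = 0.0700), which also passed with a replicate block (0.0251), without control replicate 1 (0.0104) and without control replicate 2 (5.77e-06).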

How the data were processed

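The authors deposited 1 table of CPM values, with gene symbols in rows and libraries in columns. Library preparation, per the labels' protocols, started from 200 ng of RNA and used a TruSeq stranded kit. Tools and builds in the submitters' processing notes, given there without role or order, are StringTie 2.1.3, TopHat2 2.0.6, edgeR 3.1.1, R 3.6.1 and mm10. Control columns were matched to the untreated samples by name and replicate number. Every deposited CPM value (100%, within 0.01 of a read) was a multiple of the smallest step in its library, which gave back read counts.

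The main test was limma 3.58.1 (R 4.3.3) with a mean-variance trend on log2(CPM + 1), for genes reaching 1 CPM in 2 or more libraries. Group was its single term, leaving 2 residual degrees of freedom, and p-values were Benjamini-Hochberg adjusted across every tested gene, with calls at 0.05. This scale understates the change of low genes. The recovered reads were also tested in DESeq2 1.42.0 and, by quasi-likelihood with TMM, in edgeR 4.0.16. These 3 tools were tested on simulated data. The 9 genes, the companion lists and the tests were chosen with earlier results of these data known. Besides the 9 genes, S100a10 and Sox9, the text names up to 3 tested genes with the smallest p of each list (1 where no gene of the list was called), and the 3 (passing over clone and model symbols) tested genes nearest in profile to Krt19. Prom1, Car2, Reg1, the annexins without a call and genes listed at 0 were named after their values were seen, and a gene that the rule names is not reported here. Annotation and plots used matplotlib 3.10.9 and pandas 2.3.3 in Python 3.11.15.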

Additional observations from a re-analysis of the deposited data

How the results depend on the processing

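With 2 libraries a group, single libraries moved the counts of calls most. The 404 genes higher became 149 with no filter, 252 with a filter of 5 CPM, 745 in DESeq2 and 1469 with the replicate numbers crossed, and 215 to 2408 when each library was left out in turn. The 449 lower became 179 with no filter, 845 in DESeq2, 1434 with crossed numbers and 249 to 2023 with a library left out. The replicate block gave 481 higher and 512 lower. Same-numbered libraries had deviations that correlated at -0.22, so the crossed pairing was added after seeing the data, as was the edgeR minimum of 10 reads. For genes outside the 9, passes with crossed numbers were not listed gene by gene above. The 2 lower genes among the 9 became 1 with a filter of 5 CPM, which removes Muc1, and 2 to 5 with a library left out, 5 without control replicate 2; they stayed 2 with the block. The 24 calls over the companion and cell marker lists became 13 with no filter, 48 with crossed numbers and 18 to 55 with a library left out. Near-zero log2 changes turned sign: with quantile normalization Krt8 was at 0.0072 and Epcam at 0.0067, and with a library left out Krt7 ran from -0.176 to 0.0698, Krt8 from -0.159 to 0.149, Epcam from -0.0247 to 0.0213, Cldn4 from -0.232 to 0.0639, Msln from -0.131 to 0.0324 and S100a10 from -0.216 to 0.0864. Of the comparisons of a member with an alternative, 90 kept direction and side of the threshold, 8 turned sign and 6 newly passed. The cause of these changes was not tested. No scaling moved the median of all genes past -0.02 or 0.03. Where 1 library remained in a group, its variance was taken from the other group. Calls gained or lost in those runs therefore depended on the spread of that other pair.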
